A study of Mus musculus with 144 samples.

Results

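Toll-like receptors are innate immune receptors that recognise molecules of microbes and of damaged cells, and 10 genes of this system were followed here in single microglia of the mouse retina. The genes were Tlr1, Tlr2, Tlr3, Tlr4, Tlr7, Tlr9 and Tlr13, which encode receptors, with Cd14, Ly86 and Myd88, which encode a co-receptor, a receptor-associated protein and an adaptor. They were chosen by name among the 55364 rows of the deposited expression table. Each of the 10 symbols was found.

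The cells came from the retinas of Iba1-EGFP mice aged 16 weeks, a strain in which a fluorescent reporter follows Iba1, a gene of microglia and of other macrophages. Single cells were sorted by flow cytometry and each was sequenced as its own library. The groups were 54 cells of untreated mice, 54 cells taken 2 days after nerve crush and 36 cells taken 4 days after nerve crush, all of the same strain and age. Nerve crush injures the axons that leave the retina in the optic nerve. Because the reporter follows Iba1, the sort does not by itself separate microglia from other macrophages. No label says which or how many mice gave the cells. The cells of a time point were therefore taken as 1 sample, and the time points were not tested against each other.

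Toll-like receptors fall into a surface and an endosomal class. The surface receptors Tlr1, Tlr2 and Tlr4 bind lipid-bearing molecules of the microbial envelope, and the endosomal receptors Tlr3, Tlr7, Tlr9 and Tlr13 bind nucleic acids. Most of them signal through the adaptor Myd88 to NF-kB and induce cytokines such as Tnf, whereas Tlr3 signals through the adaptor Ticam1. Microglia, the resident macrophages of the retina and brain, carry these receptors and are among the first cells to respond to injury there.

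Values are FPKM, a read level scaled by exon length and by the reads of the cell, and a cell at 20 FPKM or more is called high for a gene. Cells had a median depth of 5.31 M reads (M is 1e+06; range 0.190 to 18.9 M). Later cells had more genes at 1 FPKM or more, with medians of 2792 genes (untreated), 3469 (day 2) and 3957.5 (day 4). The median difference of the 8679 measured genes was 0.45 at day 4 and 0.21 at day 2 against untreated cells on the log2(FPKM + 1) scale. The microglia label held: all cells but 1, a day 4 cell, were high for 3 or more of 10 microglia markers. Being high for 3 or more border macrophage markers was rarer (5 untreated, 8 day 2 and 2 day 4 cells), as it was for monocyte markers (0, 2 and 0 cells). For rod photoreceptor markers the counts were 3, 0 and 1 cells, for Muller glia markers 1, 0 and 0, and for neutrophil markers 0, 0 and 1. On each of the 3 plates the time points sat in different rows, so plate row and time point cannot be told apart.

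Tlr2, Tlr13 and Myd88 were the members called higher at day 4 than in untreated cells. A difference is the mean of log2(FPKM + 1) in one group minus that in the other, positive where the group named first is higher, and a gene is called when the difference over all plates is at least 1 in size and has the same sign within each of the 3 plates. Of the 10 members, 9 were measured (all but Tlr9), that is, at 1 FPKM or more in at least 10% of cells. Of these 9, 3 were called higher and 0 lower at day 4 against untreated cells, where 18.9% of all measured genes were called higher and 0.346% lower. At day 2 against untreated cells 1 member, Tlr2, was called higher and 0 lower, beside 3.89% and 0.0576% of all measured genes. At day 4 against day 2, Tlr2, Tlr13, Myd88 and Ly86 were called higher and 0 members lower, beside 9.57% and 0.864% of all measured genes. Of these 4, Tlr2 alone stayed called at day 4 against day 2 when the median shift of all genes was taken off; Tlr13, Myd88 and Ly86 were then at 0.78, 0.88 and 0.87. The median difference of the 9 measured members was 0.49 at day 4 against untreated cells, beside 0.45 for all measured genes. Within plates 1, 2 and 3 it was 0.79, 0.81 and 1.22, beside 0.31, 0.70 and 0.32 for all measured genes. At day 2 against untreated cells it was 0.51 beside 0.21, and within plates -0.29, 0.56 and 1.14 beside 0.05, 0.26 and 0.29. The members' median was thus below that of all measured genes on plate 1 at day 2 and above it in the other values given.

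The promoters of the 3 genes called at day 4 are shown to place their annotation beside their levels. Each is the RefSeq window of build GRCm38.p6 from 250 bases before to 50 bases after the gene start. Tlr2 lies on the minus strand (window chr3:83841559-83841858), Tlr13 on the plus strand (chrX:106143025-106143324) and Myd88 on the minus strand (chr9:119339969-119340268). Capitals mark matches to the motifs searched.
Tlr2: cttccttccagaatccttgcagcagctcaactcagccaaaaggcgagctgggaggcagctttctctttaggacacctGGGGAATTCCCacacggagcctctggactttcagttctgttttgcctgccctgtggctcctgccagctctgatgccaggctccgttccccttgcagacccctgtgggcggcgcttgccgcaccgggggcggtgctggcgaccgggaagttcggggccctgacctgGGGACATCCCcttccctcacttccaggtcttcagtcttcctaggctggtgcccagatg
Tlr13: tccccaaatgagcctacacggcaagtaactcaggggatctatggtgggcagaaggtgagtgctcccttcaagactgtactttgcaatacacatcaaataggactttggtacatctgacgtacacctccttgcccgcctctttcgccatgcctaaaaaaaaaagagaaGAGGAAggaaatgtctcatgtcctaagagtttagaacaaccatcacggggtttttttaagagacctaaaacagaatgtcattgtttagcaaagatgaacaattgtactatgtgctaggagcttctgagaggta
Myd88: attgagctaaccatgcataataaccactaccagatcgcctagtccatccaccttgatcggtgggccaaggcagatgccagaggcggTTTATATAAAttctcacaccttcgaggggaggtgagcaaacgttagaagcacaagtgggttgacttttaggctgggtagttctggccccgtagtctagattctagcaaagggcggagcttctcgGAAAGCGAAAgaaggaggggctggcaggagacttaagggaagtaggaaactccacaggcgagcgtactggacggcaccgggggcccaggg
The motifs, read on both strands, were the NF-kB consensus, the interferon regulatory factor motif of 2 GAAA elements spaced by 2 bases, the core GAGGAA of PU.1 (a transcription factor of macrophages and microglia) and the TATA box TATAAA. The Tlr2 window held NF-kB matches at 2 places, the first made of 2 overlapping matches beginning 173 and 172 bases before the start and the second beginning 8 bases before it. The Myd88 window held an interferon regulatory factor match, GAAAGCGAAA, 40 bases before the start, and a TATA match on each strand, the 2 overlapping. The Tlr13 window held the PU.1 core 83 bases before the start. Among 27025 RefSeq promoter windows of this length, 8.18% held an NF-kB match, 3.49% an interferon regulatory factor match, 28.3% the PU.1 core and 14.2% the TATA box. These RefSeq starts lie inside the genes as the deposited table draws them, by 159 bases for Tlr2, 71 bases for Tlr13 and 1393 bases for Myd88. The windows of Tlr2 and Tlr13 therefore hold the start drawn in that table, and the window of Myd88 does not. Members that were not called at day 4 against untreated cells also held matches, namely Tlr3 an NF-kB match 211 bases before its start, Tlr1 the PU.1 core 23 bases before it, and Tlr9 the PU.1 core at 2 places. Matches describe the letters of these windows and no binding was measured.

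Tlr2 pairs with Tlr1 or Tlr6 to bind lipopeptides. The gene lies at chr3:83836272-83841767 (GRCm38, minus strand). The lowest, median and highest values were 0, 2.24 and 661 FPKM in untreated cells, 0, 8.91 and 610 FPKM at day 2, and 0.393, 163 and 1118 FPKM at day 4. The ranges overlapped throughout, and the time points differed in how many cells were high. High Tlr2 was seen in 11 of 54 untreated cells (20.4%; exact 95% interval, 10.6 to 33.5%), 26 of 54 day 2 cells (48.1%, 34.3 to 62.2%) and 25 of 36 day 4 cells (69.4%, 51.9 to 83.7%). These intervals, like all below, cover counting error only. On plate 1, 7 of 12 day 4 cells were high, against 2 of 18 untreated cells. On plate 2, 12 of 12 day 4 cells were high, at 84.2 to 723 FPKM, against 4 of 18 untreated cells. On plate 3, 6 of 12 day 4 cells were high, against 5 of 18 untreated cells. At day 2 the high cells numbered 6, 12 and 8 of 18 on plates 1, 2 and 3.

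Tlr2 differed by 3.44 between day 4 and untreated cells over all plates, and by 3.53, 5.06 and 1.72 within plates 1, 2 and 3. Between day 2 and untreated cells it differed by 1.41 (1.15, 1.95 and 1.14 within plates), and between day 4 and day 2 by 2.03 (2.38, 3.11 and 0.59). Plate 3 thus gave the smallest day 4 difference and plate 2 the largest. With detected genes per cell as a covariate, it was 2.39 at day 4 and 0.76 at day 2 against untreated cells, and the day 2 call was lost. As log2 ratios of mean FPKM, with 1 added to each mean, the values were 2.37 and 0.86. Among cells that were high, the median level was 154 FPKM (untreated), 98.5 FPKM (day 2) and 238 FPKM (day 4), an order other than that of the shares. When every cell was thinned to 2 M reads, Tlr2 had at least 5 reads in 82% of 50 untreated cells, 86.7% of 45 day 2 cells and 94.4% of 36 day 4 cells, after 4, 9 and 0 shallower cells were left out. Low Tlr2 was therefore read in most cells at every time point, and the time points separated at 20 FPKM rather than at detection. All 82 cells under 20 FPKM for Tlr2 had a high cell in the same plate column. The source of their low values was not tested.

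**Figure D1:**
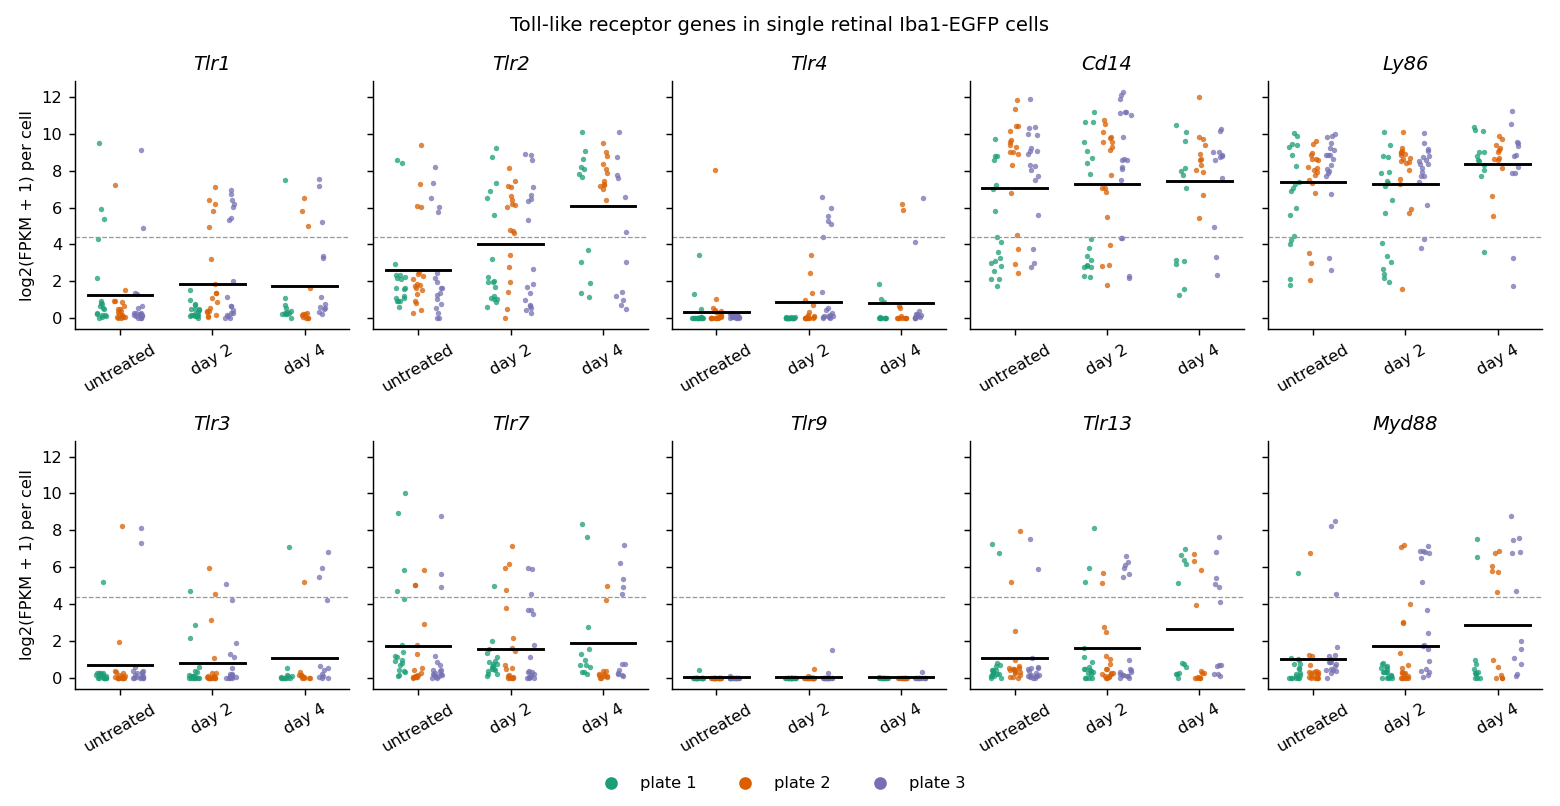
Log2(FPKM + 1) of the 10 genes in each cell (points, coloured by plate) in untreated cells, day 2 and day 4, with the mean over cells (black line) and 20 FPKM (dashed line). Tlr2 was above the dashed line in 11 of 54, 26 of 54 and 25 of 36 cells, most receptors were either near 0 or well above 20 FPKM in a cell, and Tlr9 stayed near 0.

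Tlr1, the partner of Tlr2 for triacylated lipopeptides, was called in none of the 3 comparisons. It was high in 6 of 54 untreated cells, 12 of 54 day 2 cells and 7 of 36 day 4 cells. Its highest values were 723, 138 and 184 FPKM at these times, with medians of 0.235, 0.439 and 0.342 FPKM, so a few cells carried the gene and most did not. The plates gave opposite signs for Tlr1. Day 4 minus untreated was -0.82, 0.85 and 1.46 within plates 1, 2 and 3, and day 2 minus untreated -1.38, 1.53 and 1.62. None of the 12 high cells of day 2 was on plate 1 (0 of 18), where 3 of 18 untreated cells were high. Without plate 1, Tlr1 was called higher in both comparisons with untreated cells, at 1.15 for day 4 and 1.58 for day 2. Its means were 29.5 FPKM (untreated), 17.3 FPKM (day 2) and 20.8 FPKM (day 4), an order that differs from that of the mean log2 values and rests on few untreated cells of very high value.

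Tlr4 recognises lipopolysaccharide together with Cd14 and MD-2, the product of Ly96. Its means were below those of Tlr1 and Tlr2 at every time point, at 5.06, 5.81 and 6.67 FPKM in untreated cells, day 2 and day 4. It was high in 1 of 54, 5 of 54 and 3 of 36 cells. All 5 high cells of day 2 were on plate 3, which held 5 of 18, while plates 1 and 2 held 0 of 18 each. The single high untreated cell, at 258 FPKM on plate 2, gave most of the untreated mean. Its differences were 0.46 at day 4 (0.02, 0.49 and 0.88 within plates) and 0.51 at day 2 (-0.29, -0.09 and 1.91) against untreated cells, and neither was called. After thinning to 2 M reads, at least 5 reads of Tlr4 were found in 4 of 50 untreated cells, 9 of 45 day 2 cells and 7 of 36 day 4 cells.

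Tlr7, which binds single-stranded RNA, averaged 42.4 FPKM in untreated cells, 10.2 FPKM at day 2 and 25.1 FPKM at day 4. Tlr13 averaged 14.8, 16.2 and 30.7 FPKM at these times, so that Tlr7 was above it in untreated cells and below it at day 2 and day 4, with plate means that overlapped at every time point. Tlr7 was high in 10 of 54 untreated cells, 8 of 54 day 2 cells and 8 of 36 day 4 cells. The highest values of Tlr7 were 1035, 143 and 328 FPKM. Its day 4 minus untreated difference was 0.16 (-0.33, -0.42 and 1.22 within plates) and day 2 minus untreated -0.14 (-1.46, 0.64 and 0.40), so no direction held across the plates. After thinning, 46% of untreated cells, 44.4% of day 2 cells and 44.4% of day 4 cells had at least 5 reads of Tlr7.

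Tlr13 binds a sequence of bacterial ribosomal RNA and is found in mice but not in humans. The gene lies at chrX:106143204-106160493 (plus strand). Its lowest, median and highest values were 0, 0.272 and 245 FPKM in untreated cells, 0, 0.331 and 279 FPKM at day 2, and 0, 0.617 and 200.0 FPKM at day 4. The medians stayed low because most cells of every time point were low, and again the groups overlapped over their whole range. High Tlr13 was seen in 6 of 54 untreated cells (11.1%, 4.19 to 22.6%), 11 of 54 day 2 cells (20.4%, 10.6 to 33.5%) and 13 of 36 day 4 cells (36.1%, 20.8 to 53.8%). Day 4 high cells numbered 5, 3 and 5 of 12 on plates 1, 2 and 3, against 2, 2 and 2 of 18 untreated cells. Tlr13 differed by 1.55 between day 4 and untreated cells (1.79, 0.81 and 2.04 within plates) and by 1.03 between day 4 and day 2 (1.40, 0.81 and 0.87). Without plate 1 day 4 minus day 2 was 0.84 and was not called. With detected genes as a covariate the day 4 difference against untreated cells was 0.65 and the call was lost. After thinning, at least 5 reads of Tlr13 were found in 55.6% of day 4 cells (38.1 to 72.1%) and 24% of untreated cells (13.1 to 38.2%).

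Tlr3 binds double-stranded RNA and is the receptor here that does not use Myd88. It was high in 4 of 54 untreated cells, 4 of 54 day 2 cells and 5 of 36 day 4 cells, with means of 14.4, 3.44 and 11.3 FPKM. The untreated mean was carried by few cells, the highest at 302 FPKM. Day 4 minus untreated was 0.40 (0.28, -0.12 and 1.03 within plates) and was not called. After thinning, at least 5 reads of Tlr3 were found in 4 of 50 untreated cells, 7 of 45 day 2 cells and 9 of 36 day 4 cells. Some of its exon bases are shared with Gm45542, and without strand the reads of both cannot be told apart.

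Tlr9, the receptor for unmethylated CpG DNA, was not measured. It was above 0 in 2 of 54 untreated cells, 5 of 54 day 2 cells and 2 of 36 day 4 cells, and its highest values were 0.322, 1.82 and 0.239 FPKM. No cell reached 20 FPKM. With 3 counts taken as the limit that a count of 0 allows, the share of high cells could be up to 5.56% at the first 2 time points and 8.33% at day 4. Other receptor genes read by the table were also scarce. Tlr6, the second partner of Tlr2, averaged 4.77, 3.69 and 1.10 FPKM and was high in 4, 3 and 1 cells. Tlr8, Tlr11, Tlr12 and Tlr5 were not measured, with 1, 0, 5 and 0 high cells.

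Cd14 passes lipopolysaccharide to the Tlr4 complex and also serves Tlr2. It was above 0 in every cell. The lowest, median and highest values were 2.30, 310 and 3809 FPKM in untreated cells, 2.48, 319 and 4902 FPKM at day 2, and 1.37, 348 and 4140 FPKM at day 4. The medians were close and the ranges overlapped. It was high in 37 of 54, 36 of 54 and 29 of 36 cells. Plate 1 stood apart in the untreated group, with 7 of 18 cells high and a mean of 141 FPKM, against 15 of 18 on each of plates 2 and 3, with means of 835 and 659 FPKM. Day 4 minus untreated was 0.41 over all plates and 1.17, 0.42 and -0.34 within plates 1, 2 and 3. With detected genes as a covariate it was -0.79. Over all cells, the r of Cd14 with the summed border macrophage markers was 0.38, after the mean of each time point on each plate was taken off. That sum ran from 0.136 to 6116 FPKM (untreated), 0.178 to 6046 FPKM (day 2) and 0.181 to 3669 FPKM (day 4), with Cbr2 at 0 in all untreated cells. Without the 8, 10 and 4 cells that held 3 markers of other cells, day 4 minus untreated was 0.77 for Cd14.

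Ly86 encodes MD-1, the secreted partner of the receptor-like protein Cd180, and it too was above 0 in every cell. The lowest, median and highest values were 2.42, 277 and 1039 FPKM in untreated cells, 1.93, 269 and 1109 FPKM at day 2, and 2.30, 445 and 2399 FPKM at day 4. The day 4 median was the highest, while the lowest cells were alike at all times. Day 4 minus day 2 was 1.12 (2.61, 0.60 and 0.16 within plates) and was called. Day 4 minus untreated was 0.97 (1.76, 1.16 and -0.01) and was not. Plate 1 gave most of the day 4 against day 2 difference, and without plate 1 it was 0.38 and the call was lost. Without plate 3, day 4 minus untreated was 1.46 and was called. Cd180 itself averaged 12.8, 12.2 and 39 FPKM in untreated cells, day 2 and day 4, and was high in 8 of 54, 8 of 54 and 14 of 36 cells. Its difference was 1.56 between day 4 and untreated cells (1.48, 2.01 and 1.19 within plates). Some exon bases of Cd180 are shared with Mast4.

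Myd88 is the adaptor of all receptors described here but Tlr3. The gene lies at chr9:119335934-119341411 (minus strand), and exons overlap those of Acaa1a. Its lowest, median and highest values were 0, 0.293 and 367 FPKM in untreated cells, 0, 0.377 and 145 FPKM at day 2, and 0, 0.944 and 435 FPKM at day 4. It was high in 5 of 54 untreated cells (9.26%, 3.08 to 20.3%), 9 of 54 day 2 cells (16.7%, 7.92 to 29.3%) and 14 of 36 day 4 cells (38.9%, 23.1 to 56.5%). At day 4 the high cells were 2, 6 and 6 of 12 on plates 1, 2 and 3, against 1, 1 and 3 of 18 untreated cells. Myd88 differed by 1.81 between day 4 and untreated cells (0.79, 2.47 and 2.18 within plates) and by 1.13 between day 4 and day 2 (1.15, 1.58 and 0.66). At day 2 against untreated cells the difference was 0.68, with plate 1 at -0.36, and was not called. Without plate 1 it was 1.20 and was called. The day 4 against day 2 call was lost without plate 2 (0.90) and without the cells that held 3 markers of other cells (0.87). With detected genes as a covariate the day 4 difference against untreated cells was 1.33 and the call was kept. After thinning, at least 5 reads of Myd88 were found in 50% of day 4 cells (32.9 to 67.1%) and 30% of untreated cells (17.9 to 44.6%). Of the values of Myd88 above 0, 39.3% were not whole reads. Among measured members with no exon overlap this share ran from 1.30% for Tlr4 to 37.5% for Ly86, with Tlr1 at 30.3%. Such values are thus not particular to genes that share exons, and their source was not tested. How reads shared with Acaa1a were assigned is not given in the sources used here.

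**Figure D2:**
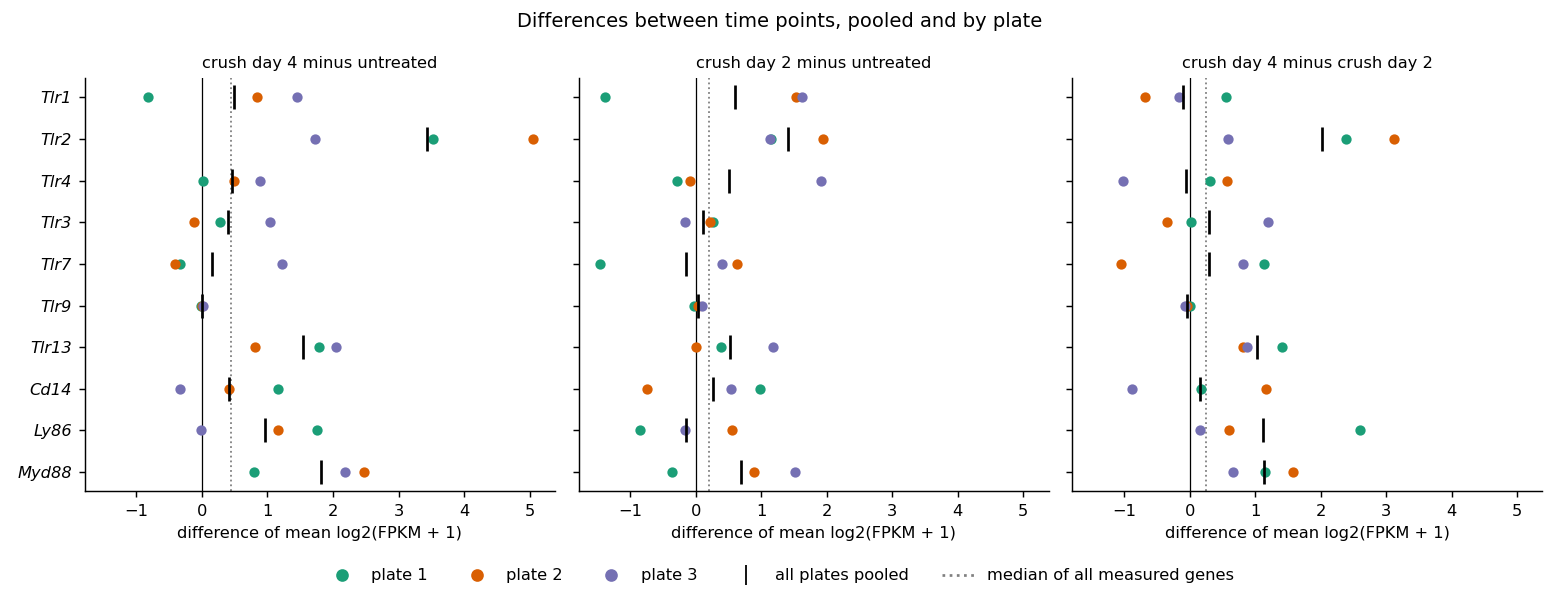
Difference of mean log2(FPKM + 1) for each gene in 3 comparisons, over all plates (black bars) and within each plate (points), with the median of all measured genes as a dotted line. Tlr2 was above 0 on every plate in all 3 comparisons, while Tlr1, Tlr7 and Cd14 fell on both sides of 0 in every comparison.

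The order of levels put the accessory genes first. By mean FPKM, Cd14 (545 FPKM) and Ly86 (348 FPKM) led in untreated cells and Cd14 (787) and Ly86 (315) at day 2, while Ly86 (560) and Cd14 (511) led at day 4. The plate means of these 2 genes overlapped in untreated cells and at day 4 but not at day 2. Tlr2 came next at every time point, at 45, 82.8 and 236 FPKM. In untreated cells its plate means overlapped with those of Tlr7, the next gene, whereas at day 2 and day 4 they lay above those of Myd88, the next gene. From there to Tlr4 or Tlr3 every neighbouring pair overlapped in its plate means, so their order is not resolved. Tlr9 was last at each time.

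**Figure D3:**
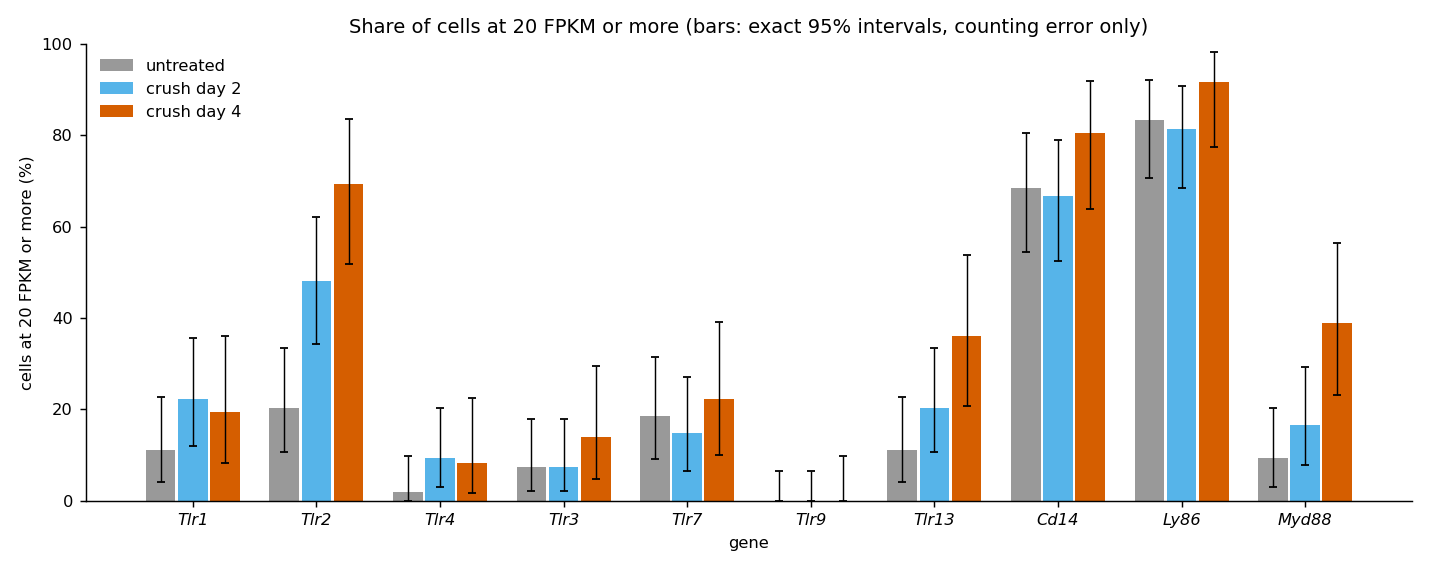
Share of cells at 20 FPKM or more for each gene in untreated cells, day 2 and day 4 (bars), with exact 95% intervals that cover counting error only. Cd14 and Ly86 were high in most cells at each time point, and Tlr2 was high in 20.4%, 48.1% and 69.4% of cells.

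The receptors were next summed by class. The summed FPKM of the surface receptors Tlr1, Tlr2 and Tlr4 had medians of 3.77, 25.7 and 188 FPKM in untreated cells, day 2 and day 4. The summed FPKM of the endosomal receptors Tlr3, Tlr7, Tlr9 and Tlr13 had medians of 1.24, 2.74 and 39.9 FPKM. On the log2(sum + 1) scale the surface sum differed by 3.17 between day 4 and untreated cells (2.96, 4.55 and 2.00 within plates), and the endosomal sum by 1.33 (1.07, 0.44 and 2.48). The surface difference was larger on plates 1 and 2 and the endosomal one on plate 3. At day 2 against untreated cells the surface sum differed by 1.08 (0.09, 1.75 and 1.40) and the endosomal sum by 0.17 (-0.92, 0.45 and 0.98). At day 4 against day 2 they differed by 2.09 (2.87, 2.80 and 0.60) and 1.16 (1.99, -0.01 and 1.50).

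Single genes weighed on these sums. Without Tlr2 the surface sum differed by 0.67 between day 4 and untreated cells, with plate 1 at -0.81. Without Tlr7 the endosomal sum differed by 1.75 (2.22, 0.76 and 2.27). Tlr7 itself differed by 0.16, and the sum without Tlr13, the only endosomal receptor called, was not computed. Whether the endosomal difference rests on Tlr13 was therefore not tested. With detected genes as a covariate, day 4 minus untreated was 2.26 for the surface and 0.44 for the endosomal sum, and day 2 minus untreated 0.38 and -0.41. The endosomal result also depends on the scale, because the mean of the endosomal sums was 67.0 FPKM at day 4 and 71.7 FPKM in untreated cells, a log2 ratio of -0.10. The untreated mean includes the Tlr7 cell at 1035 FPKM. For the surface sum the means were 264 FPKM at day 4 and 79.6 FPKM in untreated cells, a log2 ratio of 1.72 with 1 added to each mean.

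Counted by cell, at least 1 surface receptor was high in 17 of 54 untreated cells, 28 of 54 day 2 cells and 27 of 36 day 4 cells. At least 1 endosomal receptor was high in 17 of 54, 18 of 54 and 21 of 36 cells. Cells high for both classes numbered 8, 13 and 16, and cells high for neither 28, 21 and 4. The mean number of high receptors per cell was 0.704, 1.22 and 1.69. By plate it was 0.667, 0.667 and 0.778 in untreated cells, 0.611, 1.39 and 1.67 at day 2, and 1.33, 1.83 and 1.92 at day 4, so plate 1 at day 2 stood with the untreated plates. At least 3 receptors were high in 4 of 54, 11 of 54 and 8 of 36 cells, and no cell had more than 4. The summed surface FPKM was above the summed endosomal FPKM in 36, 40 and 29 cells, which at day 4 included 12 of 12 cells of plate 2 and 7 of 12 of plate 3. Detected genes per cell were also more numerous at later times, and their part in these counts was not tested.

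**Figure D4:**
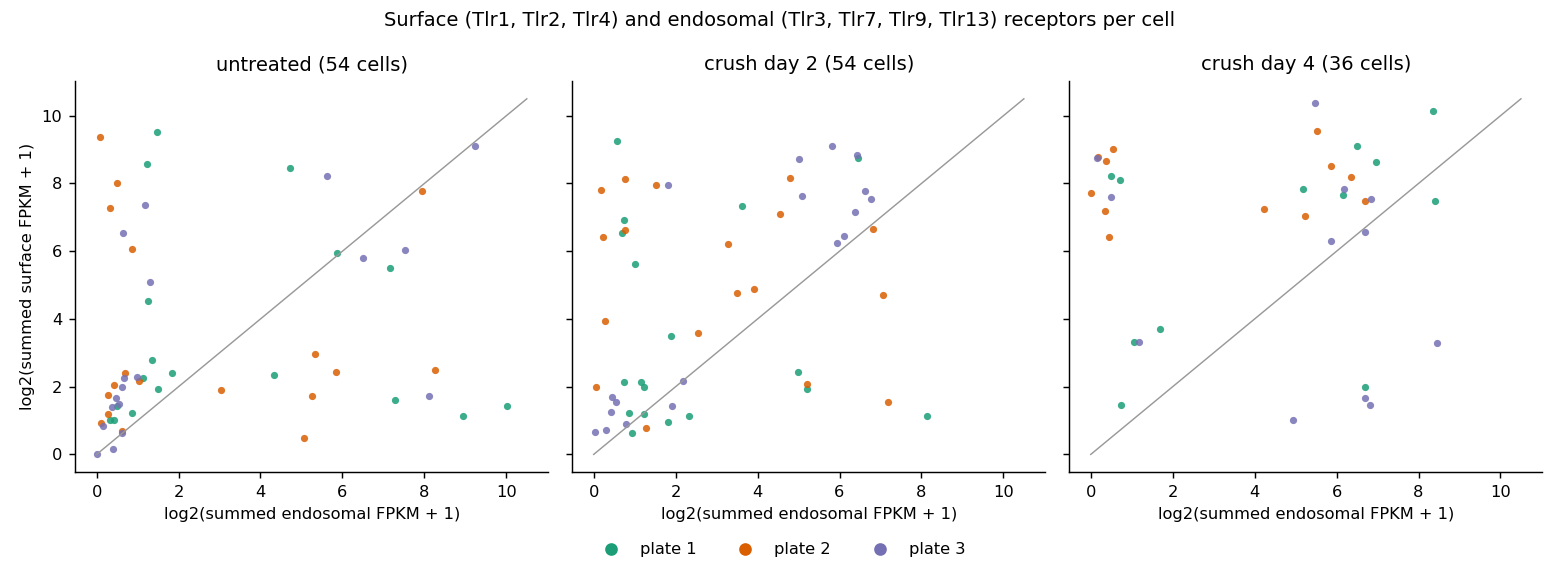
Log2(summed surface FPKM + 1) against log2(summed endosomal FPKM + 1) in each cell by time point, coloured by plate; the line marks equal sums. Cells near the lower left corner, low for both classes, are many among untreated cells and few at day 4, where 4 of 36 cells were high for neither class.

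Correlations between the members over the cells were low, in values that were near 0 for most receptors in most cells. Over all cells and the 36 pairs of measured members, Pearson's r of log2(FPKM + 1), with the mean of each time point on each plate taken off, had a median of 0.10 and ran from -0.07 to 0.29. All cells share 3 plates and a range of depths, which enter every such value. Tlr2 and Myd88 had r = 0.24 (0.43, -0.03 and 0.32 within plates), and 21 cells were high for both, of 62 high for Tlr2 and 28 high for Myd88. Tlr2 and Tlr1 had r = 0.13, and 16 of the 25 cells high for Tlr1 were high for Tlr2. All 9 cells high for Tlr4 were high for Cd14, as were 102 cells in all. Correlations of this size in sparse values are given as a description and carry no finding.

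The genes whose pattern over the cells was most like a member's were taken for the 4 members high in at least 20% of cells, with the same r over all cells as the measure. For Tlr2 they were Mir3064 (r = 0.44), Nfkbiz (r = 0.44) and Sh3bp1 (r = 0.43). The row named Mir3064 shares its bases with Ddx5, so its value may hold reads of that gene. Nfkbiz encodes an inducible nuclear regulator of NF-kB, and its r with Tlr2 was 0.61, 0.01 and 0.59 on plates 1, 2 and 3. For Cd14 they were Junb (r = 0.56), Zfp36 (r = 0.54) and Fos (r = 0.53), which are immediate-early genes. Within plates these 3 ran from 0.39 to 0.76. For Tlr13 the likest genes were Uchl3, Atp2a2 and Mier2 (r = 0.44, 0.43 and 0.39), and for Ly86 they included Ier2 and Actb (r = 0.34 each). Removing the number of detected genes lowered r for each of the pairs named. Some exon bases of Sh3bp1 are shared with Gm49510 and 1700027A07Rik, those of Zfp36 with Gm44710 and those of Atp2a2 with Gm43361. Sh3bp1, Uchl3, Atp2a2 and Mier2 were at 20 FPKM or more in only 20, 22, 17 and 12 cells.

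The wider pathway was described by lists, beside the share of all measured genes called. At day 4 against untreated cells, 4 of 8 measured accessory proteins were called higher and 0 lower, beside 18.9% and 0.346% of all measured genes, with a list median of 1.12 against 0.45 for all measured genes. They were Cd180, Slc15a3 (1.66; a histidine and peptide transporter of endosomes), Cnpy3 (1.18; a chaperone of the receptors) and Cd36 (1.13; a scavenger receptor that assists Tlr2). Within plates 1, 2 and 3 Cd36 differed by 0.15, 0.72 and 2.50, and Cnpy3 by 0.93, 0.79 and 1.82. With the median shift of all genes taken off, Cnpy3 (0.73) and Cd36 (0.68) were no longer called. Some exon bases of Slc15a3 are shared with Tmem132a. Unc93b1, which carries the endosomal receptors to their compartment, averaged 461 FPKM at day 4 against 631 FPKM in untreated cells and was not called (0.80, -0.72 and -0.12 within plates). Of 9 measured adaptors and kinases below the receptors, 0 were called in either direction, with a list median of 0.46. Irak1 and Irak4, the kinases that Myd88 recruits, differed by 0.73 and 0.67. Ticam1, the adaptor of Tlr3, was not measured.

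Of 7 measured inhibitors, 1 was called higher and 0 lower, beside 18.9% and 0.346% of all measured genes. This was Pik3ap1 (1.76), an adaptor that dampens receptor signalling. Of 10 transcription factors, 1 was called higher and 0 lower, beside the same shares, with a list median of 0.53. This was Irf7 (2.37), which drives interferon genes, at a mean of 63.3 FPKM at day 4 and 2.55 FPKM in untreated cells. Nfkb1, a subunit of NF-kB, differed by 0.40 and was not called. Of 10 measured target genes, 5 were called higher and 0 lower, beside 18.9% and 0.346% of all measured genes, with a list median of 1.63. These were the cytokine Tnf (3.87) and the chemokines Ccl4 (3.40), Ccl2 (2.65), Cxcl10 (1.75) and Ccl3 (1.51). Tnf averaged 538 FPKM at day 4 and 42.7 FPKM in untreated cells. Il1a differed by 2.33 and was not called, with plate 3 at -0.13. At day 2 against untreated cells the called genes of these lists were Irf7 (1.04), Atf3 (1.07) and Ccl4 (1.18), higher, and Ccl5 (-1.06), lower, where 3.89% of all measured genes were called higher and 0.0576% lower. With the median shift taken off, Irf7, Atf3 and Ccl4 were at 0.83, 0.86 and 0.97 and were no longer called. At day 4 against day 2, Cd180 and Slc15a3 were called higher and Ly96 (-1.66) lower, of 8 measured accessory proteins. Irf7, of 10 transcription factors, was also called higher, as were Tnf, Ccl4, Ccl2, Il1a and Cxcl10, of 10 measured targets. No measured adaptor, kinase or inhibitor was called, and of all measured genes 9.57% were called higher and 0.864% lower. Some exon bases of Irf7 are shared with Phrf1, those of Cxcl10 with Art3 and those of Il1a with Gm14023.

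For most receptors, cells under 20 FPKM were seldom at 0. Among such cells, Tlr4 was above 0 in 37 of 47 cells (78.7%) when another cell in the same plate column was high, and in 31 of 88 (35.2%) when none was. For Tlr3 the shares were 71.2% and 51.4%, and for Myd88 81.6% and 67.5%. For Tlr13 they were 84.4% and 83.3%, for Tlr7 89.4% and 91.7% and for Tlr1 89.3% and 93.8%. For Tlr2, Cd14 and Ly86 every cell under 20 FPKM (82, 42 and 22 cells) had a high cell in its plate column. These 3 genes therefore allowed no such comparison. Low values of Tlr4, Tlr3 and Myd88 above 0 thus went with high cells in the same plate column, with plates pooled. Plate 1, which held no high Tlr4 cell, had Tlr4 above 0 in 12 of 48 cells, and plate 3 in 39 of 48. The source of the low values was not tested. Cells between 10 and 40 FPKM numbered 4 for Tlr4, 6 each for Tlr1, Tlr2 and Myd88, and 7 for Tlr3. They numbered 8 each for Tlr13 and Ly86, 12 for Cd14 and 16 for Tlr7. For Tlr2, 6 cells thus lay near the level used to call a cell high, beside 62 high cells. For Tlr7 it was 16 beside 26, for Tlr3 7 beside 13 and for Tlr4 4 beside 9. The counts of high cells of these 3 receptors depend more on that level.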

How the data were processed

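The authors deposited FPKM values for 55364 gene rows in 54, 54 and 36 cells. Per the labels' protocols, cDNA was amplified from each lysed cell in 1 tube and made into libraries by tagmentation, with no molecular identifiers mentioned. The submitters' processing notes list featureCounts 1.6.1, STAR 2.7.2b, cutadapt 1.16, Trimmomatic 0.36 and Trim Galore 0.4.4, with builds GRCm38.p6 and mm10. Strand was not used here.

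Cells were grouped by their labels. Where a symbol repeated (110 rows), its row of highest mean was kept. Differences are of the mean log2(FPKM + 1), a scale that understates changes of low genes. Depth was recovered from the value of 1 read. A median of 58.4% of values were whole reads within 0.01 read, so no count model was fitted, and intervals are exact Clopper-Pearson at 95%. No test was made, for want of labelled animals. Named pathway genes were called ones, at most the 4 of largest difference per list and comparison, and like genes were the 3 of highest r, of which 1 is not reported here. Outside this rule, Ccl3, Cxcl10 (day 4 against day 2), Il1a (day 4 against untreated), Unc93b1, Irak1, Irak4, Nfkb1, Ticam1, Tlr5, Tlr6, Tlr8, Tlr11 and Tlr12 were named after their values were seen. The members and lists were chosen with earlier results of these data known. Python 3.11.15, numpy 2.4.6, pandas 2.3.3 and scipy 1.17.1 were used. The calling rule was tried on the measured values shuffled over cells within plates, with chosen genes raised in day 4 cells. Depth recovery was tried on simulated reads. Alternatives were the pseudocount, the threshold, detected genes as a covariate, the shift, leaving out plates or cells, and the mean FPKM. Of the 10 members, 7 matched RefSeq promoters to print.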

Additional observations from a re-analysis of the deposited data

Results flagged for a closer look

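Ly96, which encodes MD-2, the partner of Tlr4 in binding lipopolysaccharide, moved one way at day 2 and the other way at day 4. Day 2 minus untreated was 0.75 over all plates (1.47, 0.08 and 0.71 within plates 1, 2 and 3), and day 4 minus untreated was -0.91 (-0.27, -1.37 and -1.09). The gene averaged 43.6 FPKM (untreated), 100.3 FPKM (day 2) and 8.75 FPKM (day 4), and it was at 20 FPKM or more in 10 of 54, 17 of 54 and 4 of 36 cells of these groups. Neither of these differences was called, and both share the untreated cells. Day 4 minus day 2 was -1.66 (-1.74, -1.46 and -1.80 within plates) and was called lower, with no test made.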

How the results depend on the processing

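Of the members, Tlr2 was called higher at day 4 against untreated cells and at day 4 against day 2 under all 12 alternatives to the calculation. Weighting plates equally and summing repeated symbols both gave Tlr2 the main value of 3.44 at day 4 against untreated cells. These alternatives therefore do not count as checks of that call. With a pseudocount of 10, 1 member was called higher at day 4 against untreated cells, 0 at day 2 against untreated cells and 1 at day 4 against day 2, and with a difference of at least 2 the counts were 1, 0 and 1. With detected genes as a covariate they were 2, 0 and 1, from log2 of the mean FPKM 2, 0 and 2, and with the median shift subtracted 3, 1 and 1. Leaving out a plate gave 3 to 4, 1 to 3 and 2 to 4 members. From the mean sum, the day 4 minus untreated difference was 1.72 for the surface and -0.10 for the endosomal receptors (reversed), and the endosomal difference at day 2 minus untreated was -1.24. Without Tlr2 the surface difference was 0.67 for day 4 minus untreated and 0.22 for day 4 minus day 2. Leaving out a plate kept the surface difference for day 4 minus untreated at 2.48 to 3.76 and the endosomal one at 0.75 to 1.77. The cause of these changes was not tested. No paired analysis was possible because no test was made and the numbers of the cells pair no cells. The 3 plates were shared by the time points, and differences within them are given with the results. Without animals, the error between animals is unknown.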
